A study of Mus musculus with 5 samples.

Results

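The mRNAs of 9 core pluripotency factors of mouse embryonic stem cells (mESCs) were examined for N6-methyladenosine (m6A): Pou5f1, Sox2, Nanog, Esrrb, Zfp42, Utf1, Sall4, Dppa5a and Lin28a. They were chosen by name, among 2748 genes with at least 1 covered position in the series. The measure was the m6A level of a position, which is the percent of valid calls on native RNA reads that were m6A. A position counted as an m6A site if it lay on an exon of GENCODE M21 (mm10, strand of the call), had more than 25 valid calls in every library of its dataset, and reached 25% in at least 1 library. The METTL3 inhibition dataset held 31 such sites on 5 of the 9 mRNAs, and the Mettl5 dataset held 21 on 5 mRNAs, with 17 sites in both.

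The series consists of 5 direct RNA sequencing libraries, in which RNA molecules pass through a nanopore without amplification. In the METTL3 inhibition dataset, E14 mESCs received either 30 µM STM2457, a METTL3 inhibitor, for 48 h, or 0.025% v/v DMSO, its solvent, with 1 library each. Both cultures carried a homozygous FKBP12 F36V knock-in at the METTL3 C-terminus and a Dox::APOBEC1-YTH-HA-IRES-tdiRFP transgene, neither of them induced, and the reporters Zscan4::mCherry-PEST and 2C::3xtbGFP-PEST. In the Mettl5 dataset, untreated mESCs were wild type (WT) or came from Mettl5-KO clone 1 or clone 2, all from an earlier study, with 1 library each. All cells grew in serum and LIF medium, with 2i inhibitors added for maintenance. The labels give 1 batch for each dataset, so cell line, solvent, batch and run cannot be told apart between the datasets. With 1 library per condition, each test compares libraries and not conditions, and the clones are the only replicates.

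In mRNA, most m6A is written by METTL3, acting with METTL14, at the adenosine of the DRACH motif (any base but C, then a purine, then AC, then any base but G, on the strand of the RNA). It is often found near stop codons and in 3′ UTRs. METTL5 is known as the methyltransferase of a position in 18S ribosomal RNA. OCT4 (the product of Pou5f1), SOX2 and NANOG form the centre of the transcription factor network that keeps mESCs pluripotent, and m6A on such mRNAs is known for its link to RNA decay and to exit from pluripotency.

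The libraries held between 17897440 and 71574467 valid calls, with a median of 45 to 64 valid calls per position. The factors had 2431 covered positions in the METTL3 inhibition dataset and 2221 in the Mettl5 dataset. Sall4 had none in the former and Esrrb none in the latter, so each was described in 1 dataset only. Of 25 markers of other cell types, 0 were covered in the METTL3 inhibition dataset and 2 in the Mettl5 dataset, which were the epiblast genes Dnmt3b and Otx2. Neither Mettl3 nor Mettl5 had a covered position, so the knockout could not be checked on its gene. Reads start at the poly(A) tail, and 91.1% of the covered factor positions in the METTL3 inhibition dataset lay on a last exon.

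Sites are named by the distance, in nucleotides, of the called A from the first base of the stop codon, negative upstream of it. The following windows of 21 bases, from the GENCODE M21 transcripts of mm10 and read 5′ to 3′, are shown because the results below turn on them. Capitals mark the 5-base motif with the called A in its middle. The first group holds the most highly methylated tested site of each mRNA with one, apart from Pou5f1, the other tested Sox2 sites above 90% in DMSO, and Zfp42 -778, which was just below 25% in STM2457.
Sox2 -79: cgcccagtAGACTgcacatgg
Sox2 +10: tgagggctGGACTgcgaactg
Sox2 +17: tggactgcGAACTggagaagg
Sox2 +222: agatcttgGGACTtctttttg
Nanog -155: ttcggggaGGACTttctgcag
Esrrb +140: ccatgtgcAGACTcctgggga
Zfp42 -377: ggcggtgtGTACTgtggtgtc
Zfp42 -778: ccctcgacAGACTgaccctaa
Utf1 -11: atccttggGGACTtgcgccaa
Lin28a +2370: cagaaaagGGACTatgaatgt
The second group holds a repeat in Esrrb with 3 adjacent sites, shown as 3 overlapping windows.
Esrrb +18: cagcacatGGACGgacggaca
Esrrb +22: acatggacGGACGgacacgat
Esrrb +26: ggacggacGGACAcgatccaa
The third group holds positions outside DRACH that behaved apart from the others in the comparisons below.
Sox2 +46: tttcaaagAGATAcaagggaa
Sox2 +214: tttatgagAGATCttgggact
Zfp42 -900: gaagtgagTCATAggcattgt
Pou5f1 -185: cgagaagaGTATGaggctaca

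In the METTL3 inhibition dataset, 24 of the 31 factor sites, or 77.4%, were in DRACH, against 88.6% of all 6201 sites. The most frequent motifs among the 38 site positions of both datasets, which include 3 positions not tested because a library had exactly 25 valid calls, were GGACA and GGACT with 8 positions each and AGACT with 5. All 38 lay on the last exon of their transcript. On Sox2, Nanog, Esrrb, Zfp42, Sall4 and Lin28a no other exon was covered. Only the sites of Pou5f1 and Utf1 could thus have lain on another exon. Of the 31 sites, 20 lay in the 3′ UTR and 11 in the coding sequence, and 23 were between 200 nt before and 300 nt after the first base of the stop codon. The sites farther away were on Zfp42, from -778 to -217, and in the distal 3′ UTRs of Sox2 and Esrrb. The counts per region were not set against the covered positions of the same regions, so they do not measure an enrichment. In Zfp42 the last exon holds the whole coding sequence, as the lone exon of Sox2 does.

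**Figure D1:**
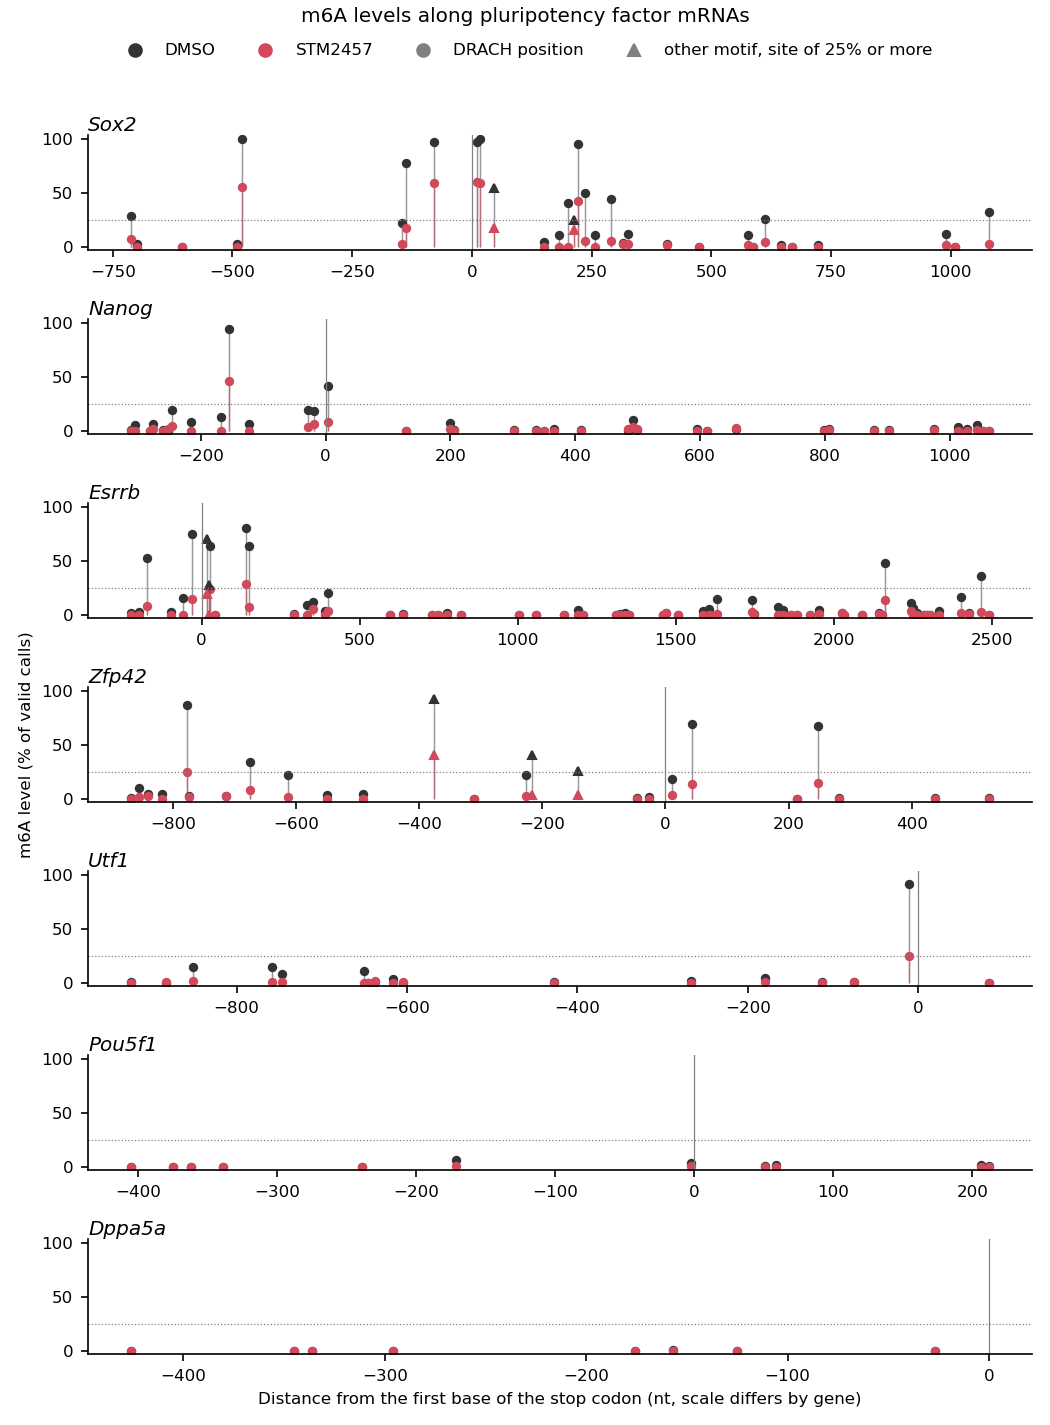
m6A level (% of valid calls) at each covered DRACH position (circles) and at each site outside DRACH (triangles) of 7 mRNAs against the distance from the stop codon in nt, in DMSO (black) and STM2457 (red). The dotted line is 25% and the vertical line the stop codon. Sox2 carries a run of sites around its stop codon, Utf1 a lone site at -11, and Pou5f1 and Dppa5a have no DRACH position above 5.98% in DMSO.

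The first question was where the factors carry m6A and how much of it remained after METTL3 inhibition. All 31 sites had a lower level in STM2457 than in DMSO, and 30 of the 31 passed Fisher's exact test (two-sided, Benjamini-Hochberg adjusted p below 0.05 over all 6201 sites). The background was high, with 91.5% of all sites called lower. All 31 factor sites reached 25% in DMSO and 7 of them did so in STM2457. The choice of sites therefore favoured a lower level in STM2457, and so it did for all sites, of which 6096 reached 25% in DMSO. The median level of the factor sites was 63.8% in DMSO and 14.6% in STM2457, and the median relative decrease was 76.8% (95% interval of the median over sites, 67.8% to 84.4%). This interval takes the sites as independent, although sites of an mRNA share molecules and are not replicates. It does not measure the spread between cultures. Over all 6096 sites of 25% or more in DMSO the medians were 52.7% and 10.3%, with a median relative decrease of 80.2%. The range in parentheses after a level is its exact binomial 95% interval, which reflects counting error alone.

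Sox2 encodes an HMG-box factor that binds DNA together with OCT4, and it carried the most sites of the 9. The gene has 1 exon (ENSMUSG00000074637.7, chromosome 3, 34650405 to 34652461, plus strand), and 12 sites were tested. Its sites fell into near-complete and partial ones. Sox2 +17 (34651390, 3′ UTR) was at 100% of 42 calls in DMSO (interval 91.6% to 100%) and 59.4% of 32 calls in STM2457 (40.6% to 76.3%; Fisher's exact test, adjusted p = 6.23e-06). The site 7 nt upstream, Sox2 +10 (34651383), was at 97.7% of 43 calls and 60.6% of 33 calls (exact test, adjusted p = 5.86e-05). In the coding sequence, Sox2 -79 (34651294) was at 97.8% of 46 calls and 59.4% of 32 calls (exact test, adjusted p = 2.69e-05). These 3 positions thus went from nearly every read to roughly 6 reads in 10, and their relative decreases of 38.0% to 40.6% were among the smallest of the factor sites. Sox2 +222 (34651595) started as high, at 95.7% of 46 calls, and fell to 42.4% of 33 calls. Most of the partial sites lost a larger share of their level, with Sox2 +214 as the exception. Sox2 +201 (34651574) went from 41.3% of 46 calls to 0 of 34 calls (0% to 10.3%). With 3 calls taken as the limit that a count of 0 allows, its level could be up to 8.82%. Sox2 +1080 (34652453), near the end of the annotated transcript, went from 32.4% of 74 calls to 2.53% of 79 calls.

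The 1 factor site not called was Sox2 +214 (34651587), outside DRACH with the motif AGATC. It was at 25% of 44 calls in DMSO and 15.6% of 32 calls in STM2457, a difference of -9.38 percentage points with a 95% interval from -26.3 to 9.83 (Fisher's exact test, adjusted p = 0.41). The depth of this position therefore allows both a large loss and none. It was also the site just inside the threshold of 25%, and the nearest positions below it in DMSO were Pou5f1 -185 at 24.0% and a Sox2 position at 22.9%. A further 2 Sox2 positions in the coding sequence had exactly 25 calls in STM2457 and were not tested. Of these, Sox2 -479 (34650894, GGACA) was at 100% of 37 calls in DMSO and 56.0% of 25 calls in STM2457.

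Nanog encodes a homeobox factor of the same network (ENSMUSG00000012396.12, chromosome 6, 122707489 to 122714633, plus strand) and carried 2 sites, on either side of its stop codon in exon 4. Nanog -155 (122713398, coding sequence) was at 94.4% of 108 calls in DMSO (88.3% to 97.9%) and 46.3% of 41 calls in STM2457 (30.7% to 62.6%; Fisher's exact test, adjusted p = 1.16e-09). Nanog +4 (122713557), whose AGACT motif begins with the last base of the stop codon, was at 41.6% of 113 calls and 8.33% of 48 calls (exact test, adjusted p = 2.55e-05). The remaining 36 covered DRACH positions of Nanog did not reach 25%, and the highest of them was at 19.8% in DMSO.

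Esrrb encodes an orphan nuclear receptor (ENSMUSG00000021255.17, chromosome 12, 86361117 to 86521628, plus strand), and its 9 sites lay in exon 7. The highest was Esrrb +140 (86519203, 3′ UTR), at 81.1% of 74 calls in DMSO and 28.9% of 45 calls in STM2457, the only Esrrb site still at 25% or more. The GGAC repeat just after the stop codon had 3 sites spaced by 4 nt. Esrrb +18 (86519081) was at 70.7% of 75 calls in DMSO, Esrrb +22 (86519085) at 27.4% of 73 calls and Esrrb +26 (86519089) at 63.8% of 69 calls. In STM2457 the same positions were at 19.1% of 47 calls, 0 of 48 calls (0% to 7.40%, or up to 6.25% by the limit of 3 calls) and 24.0% of 50 calls. The middle position was thus the lowest of the repeat in both libraries, although it shares its 5-base motif GGACG with the first. Only the last position of the repeat is in DRACH. At the far end of the 3′ UTR, Esrrb +2163 (86521226) and Esrrb +2465 (86521528) were at 48.1% and 35.9% in DMSO and at 13.6% and 3.25% in STM2457.

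Zfp42 encodes REX1, a zinc finger protein used as a marker of naive pluripotency (ENSMUSG00000051176.6, chromosome 8, 43295063 to 43306980, minus strand). Its 7 sites in exon 4 had the deepest coverage of the tested sites, at 345 to 400 calls in DMSO. The highest level was at Zfp42 -377 (43295975), outside DRACH with the motif GTACT, at 92.4% of 354 calls in DMSO (89.1% to 94.9%) and 40.4% of 297 calls in STM2457 (34.8% to 46.2%; Fisher's exact test, adjusted p = 4.35e-47). Zfp42 -778 (43296376) was at 87.0% of 378 calls and 24.9% of 317 calls. In the 3′ UTR, Zfp42 +43 (43295555) was at 69.3% and 14.2%, and Zfp42 +248 (43295350) at 68.1% and 14.9%. The largest relative decrease on Zfp42, 90.4%, was at Zfp42 -217 (43295815), a CGACA position outside DRACH that fell from 41.2% of 345 calls to 3.93% of 305 calls.

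Utf1 encodes a chromatin-associated protein of undifferentiated cells (ENSMUSG00000047751.9, chromosome 7, 139943789 to 139945112, plus strand). It had a lone site, Utf1 -11 (139944977, exon 2, coding sequence), at 92.0% of 337 calls in DMSO (88.6% to 94.7%) and 24.9% of 233 calls in STM2457 (19.5% to 31.0%; exact test, adjusted p = 7.31e-63). Its 16 other covered DRACH positions were at no more than 14.9% in DMSO.

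Pou5f1, Dppa5a and Lin28a had no site in the METTL3 inhibition dataset. For Pou5f1 (ENSMUSG00000024406.16, chromosome 17, 35506018 to 35510772, plus strand), coverage was high, and its 157 positions had a median of 960 valid calls in DMSO and 567 in STM2457. Its 11 covered DRACH positions gave 140 m6A calls of 11062 in DMSO, or 1.27%, and 12 of 6505 in STM2457, or 0.184%. The highest was Pou5f1 -171 (35510378, GGACA), at 5.98% of 970 calls in DMSO (4.57% to 7.66%) and 0.519% of 578 calls in STM2457 (0.107% to 1.51%). Dppa5a, which encodes a KH-domain protein of mESCs, was deeper still, with a median of 4976.5 valid calls in DMSO, and its 8 DRACH positions gave 62 m6A calls of 37871, or 0.164%. By the same pooled measure Sox2 was at 24.5%, Zfp42 at 16.8%, Utf1 at 9.56%, Esrrb at 8.76% and Nanog at 6.36%, and all DRACH positions of the dataset at 7.24%. The factor mRNAs thus lay on both sides of the value for all DRACH positions. A site-free mRNA was not rare, since 477 of 1839 genes with at least 8 covered DRACH positions, or 25.9%, had none at 25%. Lin28a, whose protein blocks let-7 maturation, was covered at only 36 positions there, and its 7 DRACH positions there, of which some had exactly 25 calls in STM2457, gave 4 m6A calls of 258 in DMSO, or 1.55% (0.424% to 3.92%), and 0 of 188 in STM2457 (0% to 1.94%).

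The position Pou5f1 -185 (35510364, GTATG, coding sequence) behaved unlike the DRACH positions of that mRNA. It was at 24.0% of 728 calls in DMSO and 21.1% of 436 calls in STM2457, a difference of -2.94 percentage points (95% interval -7.75 to 2.10). In the Mettl5 dataset it was at 26% of 192 calls in WT, 23.8% of 239 calls in clone 1 and 23% of 252 calls in clone 2. The 5 libraries thus lay within a narrow band. Failed calls, which are left out of the level, made up 31.1% of the calls there in DMSO, against 8.87% over the whole library. Zfp42 -900 (43296498, TCATA, the only factor site in a 5′ UTR) also had a similar level in DMSO, at 10.3% of 261 calls, and in STM2457, at 9.13% of 208 calls, with 30.8% failed calls in DMSO. Its level was not in a narrow band over the 5 libraries, since it was at 35.9% of 92 calls in WT, 41.7% of 36 in clone 1 and 21.2% of 33 in clone 2, with 34.8%, 33.3% and 42.1% failed calls. What part the failed calls have in these levels was not tested.

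**Figure D2:**
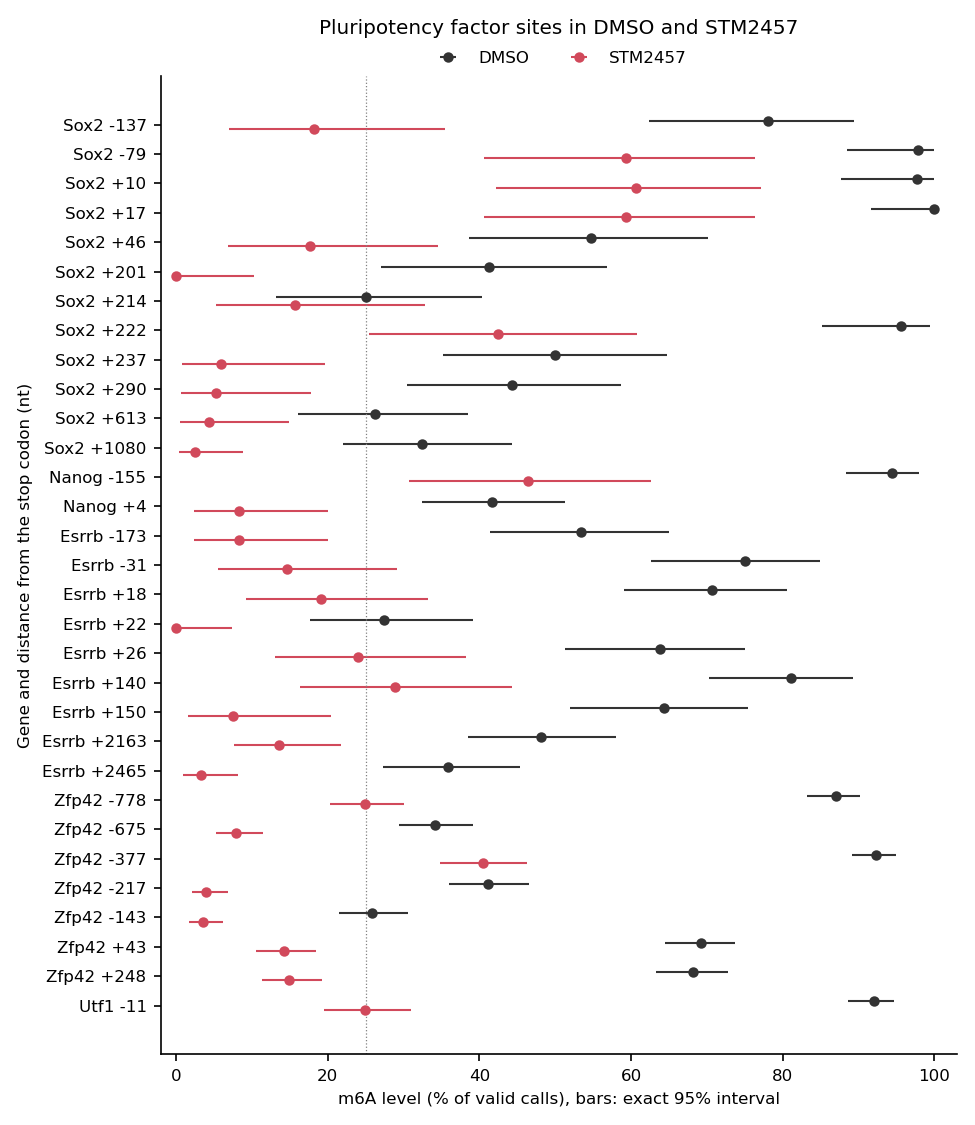
m6A level (% of valid calls) of the 31 factor sites in DMSO (black) and STM2457 (red), with exact 95% intervals and the 25% threshold as a dotted line. Every red point is to the left of its black point, and 7 red points stay at 25% or more, 4 of them on Sox2.

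Of the 31 sites, 7 were still at 25% or more in STM2457, or 22.6%, against 20.9% of all 6096 sites. These were Sox2 -79, +10, +17 and +222, Nanog -155, Esrrb +140 and Zfp42 -377, all of which were above 80% in DMSO. Utf1 -11 and Zfp42 -778, both at 24.9%, were just outside. None of the 31 sites had a relative decrease under 25%, which 4.38% of all sites had. The remaining level went with the DMSO level. The 7 factor sites at 90% or more in DMSO had a median of 46.3% in STM2457, against 42.9% for all 761 such sites, whose middle 50% lay between 32.2% and 58.1%. The 8 factor sites from 50% to 75% had a median of 14.6%, against 11.1% for 1573 sites, and the 12 from 25% to 50% had a median of 4.14%, against 5.0% for 2811 sites. The factor medians were thus near those of all sites at the same DMSO level. Sox2 -79, +10 and +17 lay just above the middle 50% of their range, Utf1 -11 below it, and with 32 to 33 calls in STM2457 the intervals of these Sox2 levels reached down into it.

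**Figure D3:**
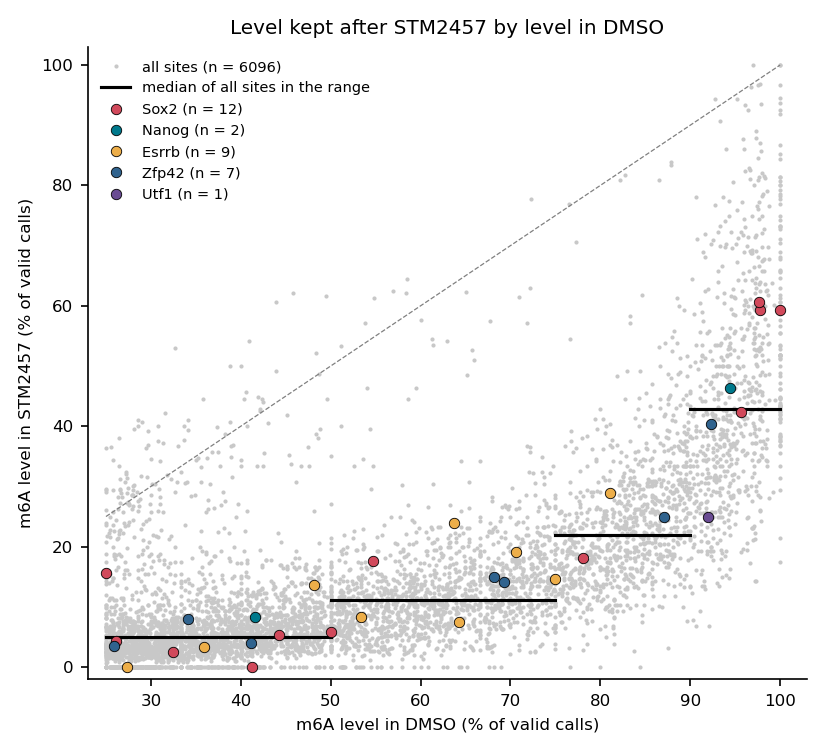
m6A level in STM2457 against m6A level in DMSO (both % of valid calls) for 6096 sites of 25% or more in DMSO (grey) and for the factor sites (coloured by gene). Black bars are the medians of all sites in 4 ranges of DMSO level and the dashed line marks equal levels. The factor sites follow the bend of the grey cloud, with Sox2 at the top right near 60%.

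A list of 40 other genes of the pluripotency network was read in the same way. It had 14 covered genes and 82 sites in the METTL3 inhibition dataset. Of these sites, 75 were called lower after STM2457, where 91.5% of all sites were called lower. The most sites were on Nacc1 and Thap11, both transcriptional regulators, with 14 each, and on Klf2, a Krüppel-like factor, with 12. Of its 80 sites of 25% or more in DMSO, 15 were still at 25% or more in STM2457, or 18.75%, against 20.9% of all sites. Of these 80, 5 had a relative decrease under 25%, which 4.38% of all sites had. Of these 5, 2 were on Nacc1, 2 on Tdgf1, a coreceptor of NODAL signalling, and 1 on Klf2. The Klf2 site (chromosome 8, 72320994, AGACT) went from 97.7% to 77.3%. The lists were not tested against each other.

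The second question was whether the loss of METTL5 changed m6A on these mRNAs. No factor site was called in either clone among the 21 sites tested (Fisher's exact test against WT, adjusted p between 0.59 and 1 in clone 1 and between 0.21 and 1 in clone 2). The background was low, with 0.53% of all 1886 sites called in clone 1, 0.583% in clone 2, 0.265% lower in both and 0% higher in both. Without adjustment, 1 factor site had p below 0.05 in clone 1 and 3 in clone 2, against 6.79% and 7.95% of all sites. The median difference from WT was 0.998 percentage points in clone 1 and 1.79 in clone 2, and over all sites it was 2.39 and 2.51. At 10 of the 21 sites the level was above WT in both clones and at 7 below it in both, or 47.6% and 33.3%, against 45.1% and 23.3% of all sites. Both clones are set against the same WT library.

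On Sox2, the 4 sites above 90% in DMSO lay between 92.1% and 100% in WT and both clones. Sox2 +10 was at 94.6% of 37 calls in WT, 100% of 29 in clone 1 and 98.2% of 55 in clone 2. Sox2 +17 was at 97.3%, 96.6% and 96.4% in the same order. Their differences from WT had 95% intervals from -14.7 to 17.7 percentage points over both clones, so losses of more than 14.7 points are outside these intervals and smaller ones are not. Averaged over 10 sites, Sox2 was at 62.8% in WT, 63.5% in clone 1 and 64.9% in clone 2. Sox2 +46 (AGATA) had the widest spread, with 17.6% of 34 calls in WT, 26.9% of 26 in clone 1 and 42.0% of 50 in clone 2 (exact test, adjusted p = 1 and 0.53).

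On Zfp42, Zfp42 -377 was at 85.0% of 127 calls in WT, 83.7% of 49 in clone 1 and 95.2% of 62 in clone 2. Zfp42 -217 was at 27.1% of 129 calls, 31.4% of 51 and 45.0% of 60 (exact test, adjusted p = 1 and 0.41). Averaged over 7 sites, Zfp42 was at 53.5% in WT and at 55.8% and 56.0% in the clones. Utf1 -11 was the only factor site with an unadjusted p below 0.05 in both clones. It was at 80.4% of 209 calls in WT, 88.8% of 169 in clone 1 and 93.3% of 105 in clone 2, so both clones were above WT (exact test, adjusted p = 0.59 and 0.21). Such a result in the higher direction was found at 1.91% of all sites, and both clones share the WT library.

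Lin28a was read well only in this dataset, with 653 covered positions (ENSMUSG00000050966.9, chromosome 4, 134003330 to 134018841, minus strand) and 2 sites in the long 3′ UTR of exon 4. Lin28a +2370 (134003737) was at 26.5% of 49 calls in WT, 32.2% of 59 in clone 1 and 39.1% of 92 in clone 2. Lin28a +1215 (134004892, TTATG, outside DRACH) was at 25% of 32 calls, 10.8% of 37 and 10.9% of 55 (exact test, adjusted p = 0.84 and 0.75), the lowest clone levels of the 21 sites. It reached 25% in WT only, so the choice of sites favoured a WT level above the clones. Failed calls made up 23.8% of the calls there in WT, 27.5% in clone 1 and 29.5% in clone 2. Nanog +4 and Sall4 +688 (168749343, chromosome 2, minus strand) had exactly 25 calls in a library and were not tested. Nanog +4 was at 39.3%, 40.0% and 36.7% in WT, clone 1 and clone 2. Sall4, a zinc finger factor (ENSMUSG00000027547.17), was at 16%, 27.6% and 20.9% at that position, with overlapping intervals.

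**Figure D4:**
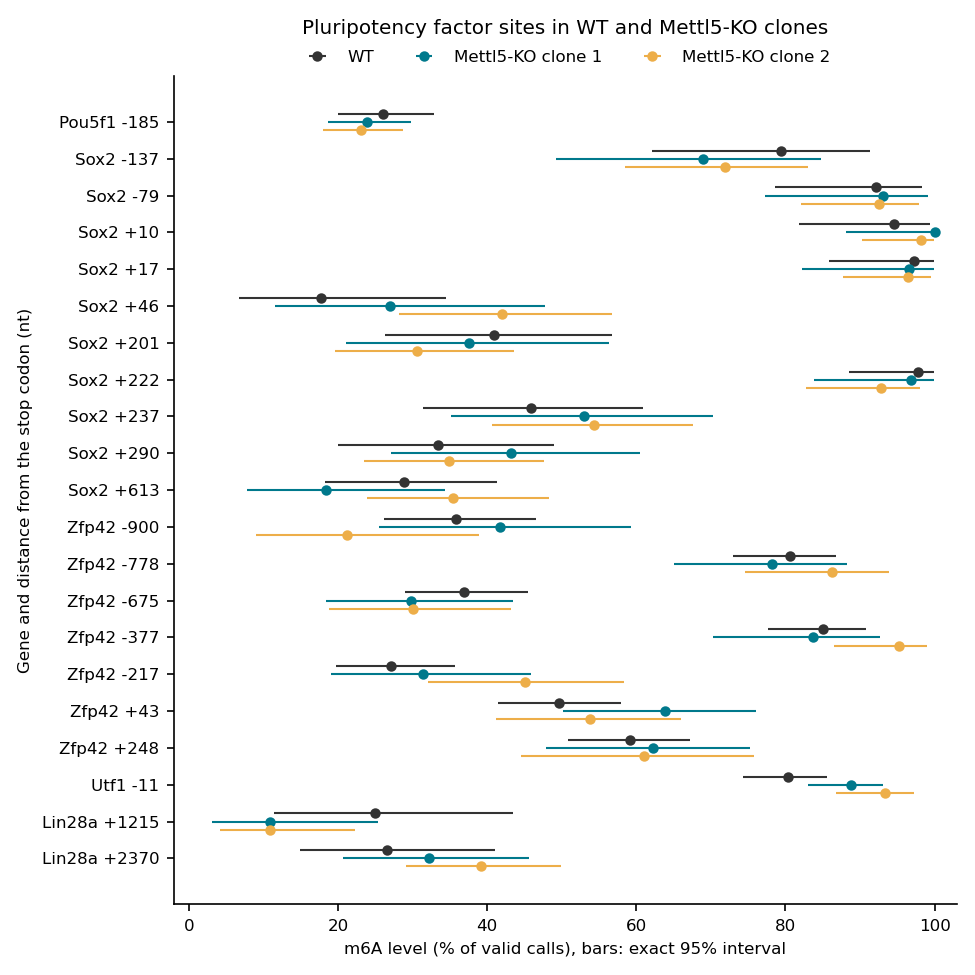
m6A level (% of valid calls) of the 21 factor sites of the Mettl5 dataset in WT (black), clone 1 (teal) and clone 2 (yellow), with exact 95% intervals. No site passed the adjusted test in either clone. Utf1 -11, Sox2 +46 and Zfp42 -217 have both clones to the right of WT, and Lin28a +1215 has both to the left. Sox2 +46 reached 25% in the clones only and Lin28a +1215 in WT only.

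In the list of 40 network genes, 1 of 85 sites was called lower in both clones and 0 higher, against 0.265% lower in both over all sites. The site was on Tdgf1 (chromosome 9, 110939848, ACAGA, outside DRACH), with 38.7% in WT, 13.5% in clone 1 and 12.4% in clone 2. It reached the level threshold for a site in WT only, so the choice of sites favoured a WT level above the clones.

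DMSO and WT were compared as the controls of both datasets at 22 factor sites covered in both. The level differed at 5 of these (Fisher's exact test, adjusted p below 0.05 over 1577 sites), against 15% of all sites, with 11.1% lower and 3.93% higher in WT. Lower in WT were Zfp42 +43, from 69.3% in DMSO to 49.7% in WT (exact test, adjusted p = 0.00078), Utf1 -11, from 92.0% to 80.4% (exact test, adjusted p = 0.0021), Sox2 +46, from 54.8% to 17.6% (exact test, adjusted p = 0.012), and Zfp42 -217, from 41.2% to 27.1% (exact test, adjusted p = 0.041). Higher in WT was Zfp42 -900, from 10.3% to 35.9% (exact test, adjusted p = 1.22e-05). Zfp42 -900 reached the level threshold for a site in WT only, and Sox2 +46 in DMSO only. The choice of sites therefore favoured the direction of both differences. Zfp42 +43, Utf1 -11 and Zfp42 -217 reached the threshold in both controls. Of the 5 sites that differed, 3 were outside DRACH, where 7 of the 22 sites lay. Over all sites, 31.2% of those outside DRACH and 11.7% of those in DRACH were called. The median difference, WT minus DMSO, was -3.62 percentage points at the factor sites and -7.67 over all. At Utf1 -11, clone 2 at 93.3% was near the DMSO level of 92.0%, and WT was the lowest of the 4 cultures without STM2457.

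Read depth per mRNA was compared as the median valid calls over the same positions of a gene, divided by the median ratio of all genes. It has no replicate check apart from the clones, and in such bulk libraries fewer cells of a type and less RNA per cell cannot be told apart. After STM2457, Nanog had a median depth of 55 against 125 in DMSO, 1.85-fold lower after scaling, and was the only factor past 1.5-fold. Of 2516 genes, 9.02% were lower by that fold and 9.78% higher. Pou5f1 was at 0.727 of its DMSO depth after scaling, Zfp42 at 1.03, and the other covered factors between 0.834 and 0.893. The STM2457 level at Nanog -155 therefore rests on 41 calls against 108 in DMSO.

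In the clones, Zfp42 had the largest difference of depth among the factors. Its median depth was 138 calls in WT against 51 and 56 in clones 1 and 2, 2.39-fold and 2.46-fold lower after scaling. A depth at least 1.5-fold lower in both clones was found for 4.45% of 966 genes. Of the epiblast markers, Dnmt3b, a DNA methyltransferase, had a median depth of 106 in WT, 144 in clone 1 and 163 in clone 2, and was at 1.54 times the WT depth in both clones after scaling, where 3.83% of genes were at least 1.5-fold higher in both. Otx2, a homeobox factor, had 32, 25 and 37, or 0.884 and 1.16 times the WT depth, and the other markers of that list, Fgf5 and Pou3f1, had no covered position. What part the makeup of the cultures has in the depth of Zfp42 was not tested. The Zfp42 ratio moved little when depth was scaled by total valid calls (0.438 in both clones). Lin28a was higher, with 39 in WT, 46 in clone 1 and 70 in clone 2, and so was Sall4, with 27, 29 and 42. Both passed 1.5-fold in clone 2 only, where 9.01% of genes did. Pou5f1, Nanog, Utf1 and Dppa5a stayed between 0.80 and 1.38 of WT in both clones, and Sox2 was at 0.707 and 1.0.

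Between the controls, WT differed from DMSO by more. Dppa5a was 3.73-fold lower in WT after scaling, while Lin28a was at 3.97, Sox2 at 2.94 and Utf1 at 1.79 times the DMSO depth. In this comparison, 29.9% of 862 genes were at least 1.5-fold higher and 23.1% at least 1.5-fold lower.

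**Figure D5:**
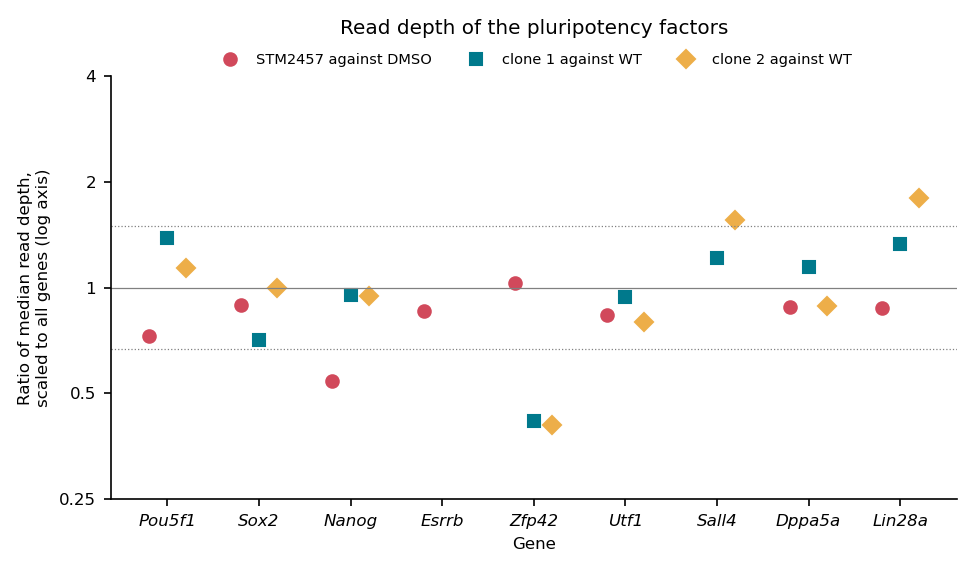
Ratio of median read depth per gene, scaled to the median of all genes (log axis), for STM2457 against DMSO (red circles), clone 1 against WT (teal squares) and clone 2 against WT (yellow diamonds). Dotted lines mark 1.5-fold in each direction. Nanog is below the lower line after STM2457 and Zfp42 below it in both clones, while Sall4 and Lin28a are above the upper line in clone 2.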

How the data were processed

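The authors used WarpDemuX for demultiplexing, dorado for basecalling, modification calling and mapping on mm10, and modkit pileup for the position tables. The deposited values are counts of valid, m6A, unmodified, failed and other calls per position and strand, and the deposited percent is 100 times m6A calls over valid calls. Failed calls are left out of it, so levels rest on confident calls only. Every deposited position had at least 25 valid calls in each library of its dataset.

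Positions were placed on GENCODE M21 exons with bedtools 2.31.1, and levels were recomputed from the counts. Sites were compared with Fisher's exact test on m6A and other valid calls (scipy 1.17.1, pandas 2.3.3, numpy 2.4.6, run in Python 3.11.15). The p-values were adjusted over every site in the comparison (Benjamini-Hochberg), and the code was tested on simulated data. Differences have Newcombe 95% intervals. Depth used genes with at least 20 shared positions. The members and lists were chosen with earlier results of these data known. Sites with full values were, by rule, the highest and the least and most decreased of each mRNA, and those called in a comparison. Others were named after their values were seen. Near-identical pseudogene copies, which Pou5f1, Nanog, Zfp42 and Dppa5a are known to have, were not checked for shared reads.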

Additional observations from a re-analysis of the deposited data

How the results depend on the processing

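The number of factor sites depended on the thresholds, as their construction implies. In the METTL3 inhibition dataset, 31 sites became 12 with at least 50 valid calls, 101 with a level of 10% and 19 with a level of 50%, and in the Mettl5 dataset 21 became 6, 102 and 11. In the same order, 12, 49 and 19 sites were called lower after STM2457, so many positions of 10% to 25% were not. Sites still at the threshold after STM2457 numbered 7 in the main setting and 1, 27 and 3 in these. The median relative decrease stayed between 71.4% and 78.1%, and the absolute decrease had a median of 40.6 percentage points. The count of 5 sites that differed between DMSO and WT became 10 at a level of 10%, 3 at a level of 50%, 3 with failed calls in the denominator, 2 in DRACH only and 3 at an adjusted p below 0.01. Zfp42 -217 lost its call with failed calls counted (exact test, adjusted p = 0.087) and with reads thinned to equal coverage (adjusted p = 0.14), and Zfp42 -900 no longer reached 25% in DMSO or WT with failed calls counted. In the clones, 0 sites were called lower or higher under each alternative run, with either clone left out (0 to 0) and with the clones pooled, where Utf1 -11 had an adjusted p of 0.13 in the exact test. Of 62 alternative depth ratios, 61 stayed within 1.5-fold of the main one. The exception was Esrrb after STM2457, at 1.33 by its highest coverage against 0.858. Depth limits Sox2 most, with 32 to 46 calls in STM2457 at each tested site but Sox2 +1080. No paired analysis was possible because the labels number only the clones and no control shares their numbers.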

Other observations

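The model also calls inosine and 2′-O-methyladenosine, which the files do not separate. These calls reached 10% in both libraries of the METTL3 inhibition dataset at 7 of 2431 factor positions. Zfp42 43295962 (chromosome 8, TTATC) was at 18.4% of 299 valid calls in DMSO and 15.4% of 247 in STM2457, and at 17.4%, 19.0% and 21.3% in WT, clone 1 and clone 2. Pou5f1 35510339 (chromosome 17, GTATT) was at 17.1% and 17.7% in DMSO and STM2457, and at 10.3%, 11.5% and 11.4% in WT, clone 1 and clone 2. Dppa5a 78367805 (chromosome 9, TCATT) was at 10.5% of 4065 valid calls and 10.8% of 2987 in DMSO and STM2457, and at 20.8%, 20% and 21.7% in the Mettl5 dataset. The m6A level of these 3 positions was at most 4.76% in any library. Over all exonic positions, 1218 of 468161 reached 10% in both libraries of the METTL3 inhibition dataset. The share of the factor positions was near that of all positions.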
